A study of Homo sapiens with 24 samples.

Results

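The comparison asked which genes responded differently to 6 h of pyridostatin (PDS) in PEO4 and PEO1 BRCA+ cells. For each gene the log2 change in PEO4 (6 h minus untreated) was taken minus the log2 change in PEO1 BRCA+, and this difference is called the interaction below. A positive interaction means that the change in PEO4 lay above the change in PEO1 BRCA+. All 28277 genes of the deposited count table were taken, of which 17020 passed the filter on low counts and were tested. A call needed an adjusted p below 0.05 (Benjamini-Hochberg over all tested genes) together with a log2 interaction beyond 1 in either direction. The interaction was called for 2512 genes, which is 14.8% of those tested, with 923 genes higher in PEO4 (5.42%) and 1589 lower (9.34%). The adjusted p alone was passed by 4160 genes higher (24.4%) and 3910 lower (23.0%).

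Gene expression was measured by RNA sequencing in 12 libraries, 3 replicates each of untreated PEO1 BRCA+, PEO1 BRCA+ after 6 h in 5 µM PDS, untreated PEO4, and PEO4 after 6 h in 5 µM PDS. Another 6 libraries, taken after 2 h of PDS, entered the same fit and are given beside single genes. PEO1 and PEO4 are established ovarian adenocarcinoma lines of common origin, PEO4 taken after resistance to platinum drugs had developed. PEO1 BRCA+ is a form of PEO1 labelled BRCA2+, as opposed to the parent line that lacks BRCA2 function, and PEO4 is labelled wild type. The paper describes PEO4, like PEO1 BRCA+, as carrying a BRCA2 reversion mutation, so the label does not mean an unmutated gene. The lines differ in passage history and background as well as in drug resistance, each is 1 line, and the labels name no vehicle for the untreated cells. The replicates are labelled biological, nothing ties their numbers to separate days, and p-values measure the spread between these libraries.

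PDS is a small molecule that binds and stabilises G-quadruplexes, stacked structures that guanine-rich DNA and RNA can fold into. In cells they are found at many promoters, where polymerases, helicases and chromatin proteins meet them, and their stabilisation can alter transcription and cause replication stress. High-grade ovarian carcinoma cells carry an epithelial programme of keratins, mucins and lineage factors such as PAX8 and WT1, and loss of BRCA2 function removes homologous recombination, the repair route on which sensitivity to platinum largely depends.

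Untreated libraries held between 18699929 and 22375644 counts and 6 h libraries between 34119767 and 43713947, in both lines. Ribosomal RNA took 0.217% to 0.474% of counts in untreated and 0.0163% to 0.0369% in 6 h libraries, so depth and this share moved with treatment, and their part in the responses was not tested. Of 14 ovarian carcinoma markers, 11 averaged over 1 CPM (counts per 1e6 counts, scaled by TMM) in both untreated lines, PAX8 among them at 176 and 226 CPM, while MECOM was below that in untreated PEO4, FOLR1 in untreated PEO1 BRCA+, and SOX17 held at most 2 counts in any of the 12 libraries. Of 13 genes seen at 10 CPM or more in untreated PEO1 BRCA+ and at 3 counts or fewer in each untreated PEO4 library, all 13 stayed at 3 counts or fewer in PEO4 after 6 h, with 2 counts the most seen. Of 11 genes seen in PEO4 only by the same limits, 6 stayed at 3 counts or fewer in PEO1 BRCA+ after 6 h, with 8 counts the most seen. The untreated PEO4 libraries differed among themselves. Over the 1346 genes called in the interaction and in PEO4 and measurable in both lines, replicate 2 lay nearest the 6 h level for 69.8% and replicate 3 farthest for 64.0%.

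Most of the difference lay on the side of PEO4. Of the 2512 genes, 1741 (69.3%) were also called in the PEO4 response and not in the PEO1 BRCA+ response, 216 (8.60%) only in PEO1 BRCA+, 72 (2.87%) in both lines in opposite directions, 136 (5.41%) in both lines in the same direction, and 347 (13.8%) in neither line taken alone. PEO4 had 1066 genes up (6.26% of those tested) and 2782 down (16.3%), and PEO1 BRCA+ had 220 up (1.29%) and 1163 down (6.83%). Among genes called lower in the interaction, 1257 fell in PEO4 only, and among those called higher 484 rose in PEO4 only. The median response of all tested genes was -0.03 (log2) in each line and the median interaction 0.01. The median absolute response was 0.52 in PEO4 and 0.33 in PEO1 BRCA+.

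**Figure D1:**
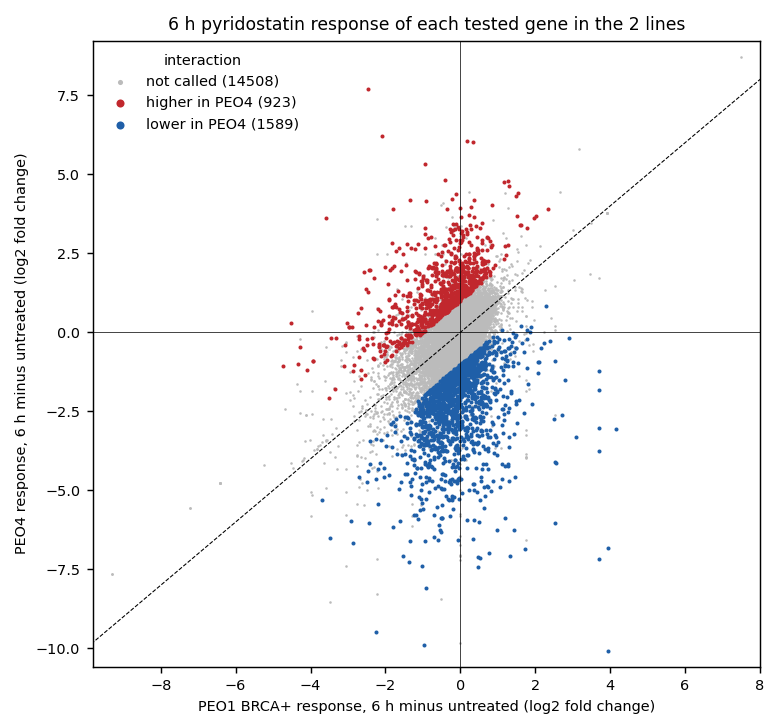
Log2 fold change after 6 h of PDS in PEO1 BRCA+ (x axis) and in PEO4 (y axis) for each of the 17020 tested genes, with the dashed line marking equal change. Red points (923) and blue points (1589) were called higher and lower in PEO4 by the interaction. They spread mainly along the vertical axis, with fewer points far from 0 on the horizontal axis.

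A gene that is silent in one line can show no response there. Requiring at least 1 CPM in the higher condition of each line left 13714 genes, of which 690 were called higher and 1058 lower, or 12.7%. The untreated lines already differed at these genes. Of the 690 called higher, 577 had the lower untreated level in PEO4, with a median difference between the lines of -1.05 (log2, PEO4 minus PEO1 BRCA+) untreated and 0.43 after 6 h. Of the 1058 called lower, 786 had the higher untreated level in PEO4, with medians of 0.74 and -0.95. Over all 13714 genes these medians were -0.01 and 0.02. The untreated libraries enter both the interaction and the untreated difference, so these values describe the genes and are no separate test.

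The functions that differed are summarised by 35 hand-written gene lists, given as counts of tested members called in the interaction. Over all tested genes 9.34% were called lower and 5.42% higher, so more lower than higher calls was the general pattern. Interferon-response genes had the largest share of members called lower, followed by cornified envelope and kallikrein genes and by keratins. Among roles with calls in the other direction, 3 of 6 chemokines of the NF-kB list (1 lower) and 3 of 9 laminins (0 lower) were called higher. Genes of ribosomes, homologous recombination, G-quadruplex unwinding, mitosis and oxidative phosphorylation had no member called in either direction, although for homologous recombination and mitosis this changed when single libraries were left out.

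**Figure D2:**
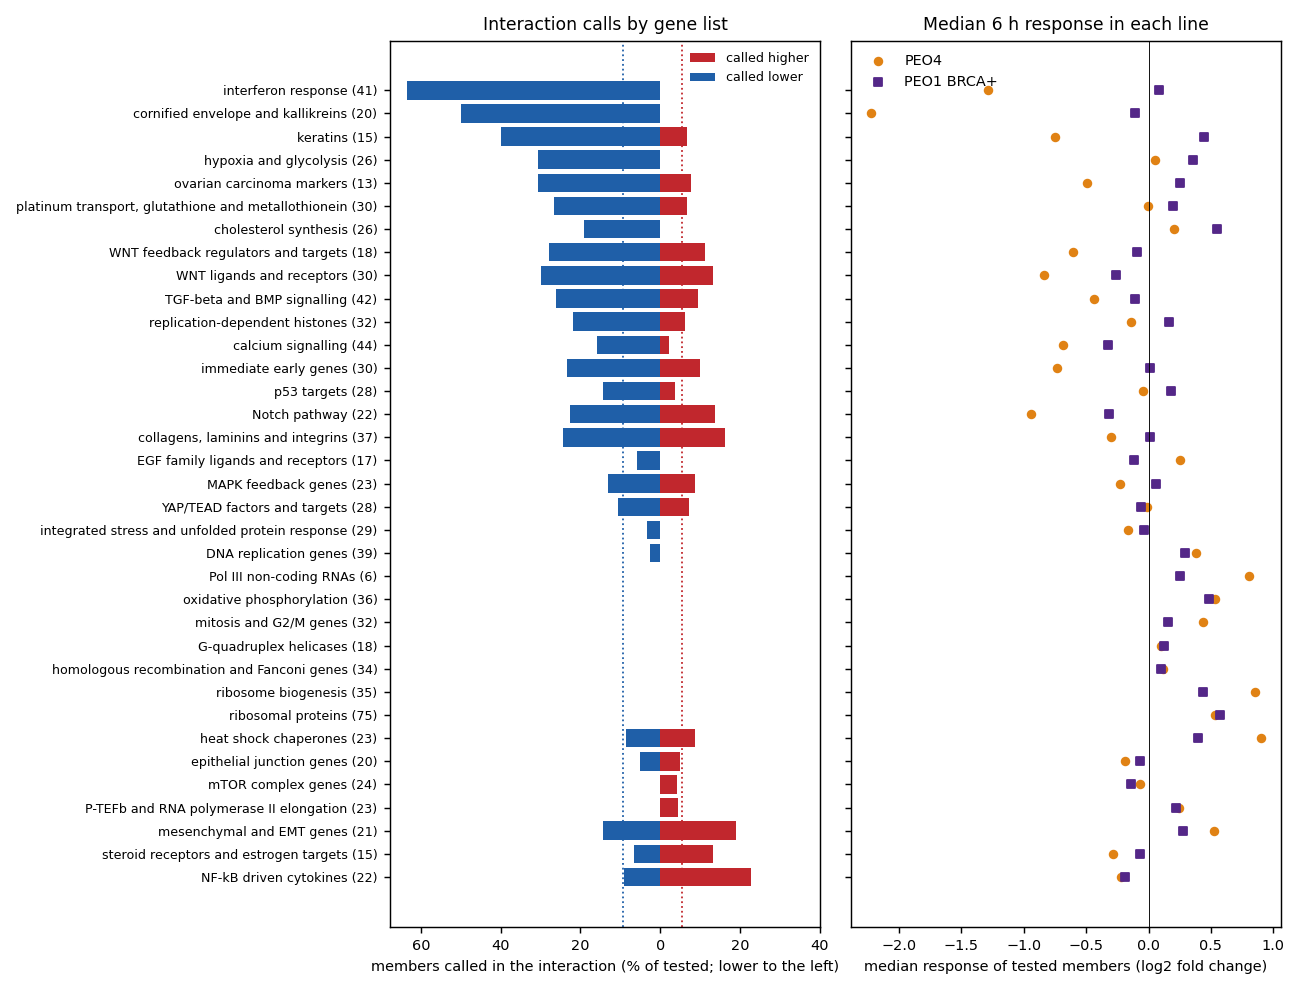
Left, percent of the tested members of each gene list (number in brackets) called higher (red, to the right) or lower (blue, to the left) in the interaction, with dotted lines at the shares over all tested genes, 5.42% and 9.34%. Right, median log2 response of the same members in PEO4 (orange circles) and PEO1 BRCA+ (purple squares). The interferon list has 26 of 41 members called lower and a PEO4 median of -1.29 against 0.09 in PEO1 BRCA+.

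Interferon-response genes fell in PEO4 and not, as a group, in PEO1 BRCA+. They encode antiviral effectors, nucleic acid sensors and the transcription factors that switch them on, and cancer cells often express them without infection. Of 41 tested members 26 were called lower in the interaction, 0 higher, and 38 had a negative interaction, against 9.34% called lower over all genes. The 26 called lower included 17 of 23 effectors, 4 of 5 transcription factors, 2 of 6 sensors, 2 of 6 antigen presentation genes and the 1 ligand. In PEO4 the response alone called 26 members down and 0 up, and in PEO1 BRCA+ 3 down and 1 up. These 26 were not the same genes as the 26 called in the interaction. RSAD2 (59.7 to 45.3 CPM) and IFI44 (63.1 to 56.6 CPM) fell little in PEO4 but were called lower in the interaction. For these, part of the interaction came from a rise in PEO1 BRCA+. MX2 (7.06 to 0.646 CPM) fell in PEO4 and was not called in the interaction. The median interaction was -1.20, with a median of 0.01 over all tested genes.

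IFI6, an interferon-induced mitochondrial protein, stood at 224, 241 and 466 CPM in the 3 untreated PEO4 libraries and 19.1, 26.6 and 36.1 CPM after 6 h. In PEO1 BRCA+ it was at 2.25, 3.39 and 2.24 CPM untreated and 6.35, 5.15 and 3.11 CPM at 6 h. Untreated and 6 h libraries of PEO4 did not overlap, as in 72.2% of all tested genes (61.8% in PEO1 BRCA+), PEO1 BRCA+ was low in every library, and the interaction was -4.40 ± 0.59 on the log2 scale (± standard error, edgeR quasi-likelihood test, adjusted p = 5.08e-05). MX1, a dynamin-like antiviral GTPase, went from 188, 189 and 318 to 18.6, 22.7 and 30.6 CPM in PEO4 and from 8.10, 14 and 5.97 to 13.7, 13.2 and 12.9 CPM in PEO1 BRCA+, an interaction of -3.77 ± 0.40 (adjusted p = 6.11e-06). The PEO4 fall separated all untreated from all 6 h libraries. Means of the oligoadenylate synthase OAS1 fell from 82.5 to 7.94 CPM in PEO4 and were 3.26 and 2.98 CPM in PEO1 BRCA+ (interaction -3.26 ± 0.33, adjusted p = 1.76e-06).

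OAS3, another oligoadenylate synthase, was well expressed in both lines. Its libraries read 76.5, 81.5 and 75.6 CPM untreated and 69.2, 65.6 and 72.1 CPM at 6 h in PEO1 BRCA+. In PEO4 they read 328, 299 and 551 CPM untreated and 34.6, 43.8 and 55.4 CPM at 6 h, and the interaction was -2.97 ± 0.30 (adjusted p = 3.71e-06). The untreated and 6 h libraries did not overlap in either line, with a log2 response of -0.17 ± 0.21 in PEO1 BRCA+ and -3.14 ± 0.22 in PEO4. IRF9, a transcription factor of the interferon signal, averaged 93.9 CPM untreated, 67.8 CPM at 2 h and 17.8 CPM at 6 h in PEO4 (interaction -1.91 ± 0.15, adjusted p = 6.54e-10). The 5 transcription factors of the list had a median log2 response of -1.58 in PEO4 and -0.49 in PEO1 BRCA+. The timing differed between members, since ISG15, a ubiquitin-like modifier, held 418 CPM untreated, 421 CPM at 2 h and 171 CPM at 6 h, while OAS3 was already at 85.8 CPM at 2 h. IFI44L, BST2 and IFITM1, with the largest interactions of the list (-5.96, -5.50 and -5.27), stayed under 1 CPM in PEO1 BRCA+, so no response could be measured there. BST2 lost its call when any 1 of 5 PEO1 BRCA+ libraries was left out (adjusted p 0.0549 to 0.107), and when the 12 libraries were fitted alone (adjusted p = 0.0830). Without untreated PEO4 replicate 3, 20 members were called lower instead of 26.

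**Figure D3:**
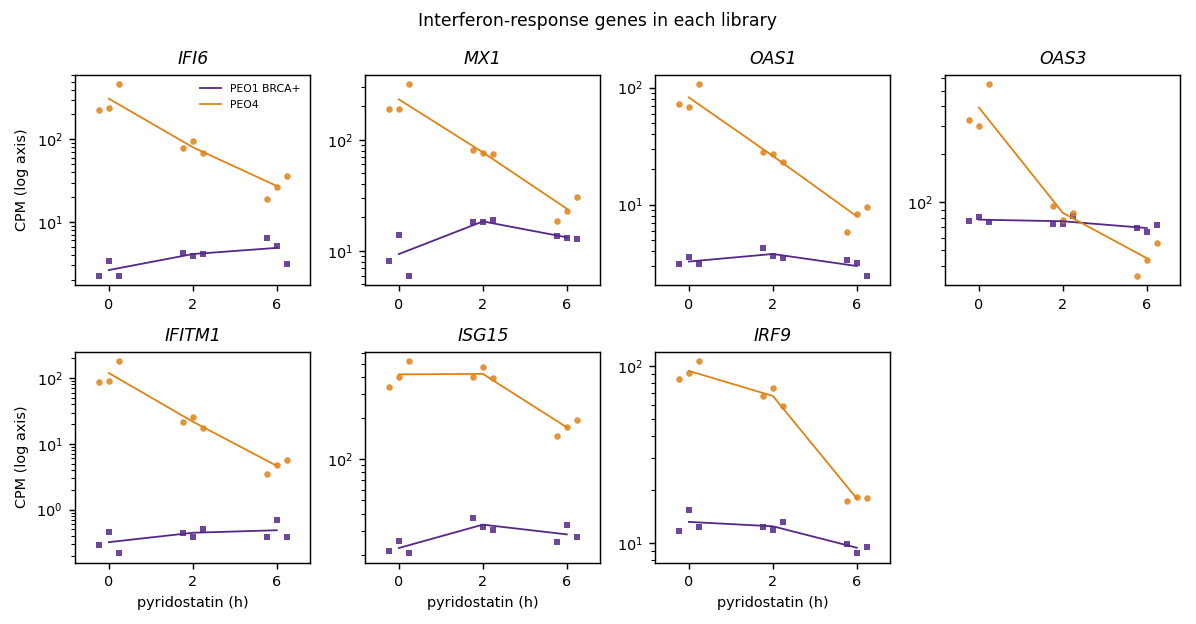
CPM on a log axis for 7 interferon-response genes in each library in untreated cells and at 2 h and 6 h of PDS, with points for libraries and lines through the means of 3 in PEO4 (orange circles) and PEO1 BRCA+ (purple squares). PEO4 falls in each panel and PEO1 BRCA+ stays low or changes less, with OAS3 in PEO1 BRCA+ at 77.9 CPM untreated and 69 CPM at 6 h.

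Many promoters of interferon-response genes hold the interferon-stimulated response element, searched here as GAAANNGAAA on either strand. In windows around the start of the canonical transcript, reaching mostly upstream, it was found in 18 of the 26 members called lower and 5 of the 14 others with a window, against 2.91% of windows of the same length over all tested genes. The promoters of IFI6 and MX1 are shown because both genes follow the pattern above and both RefSeq promoters hold the element, which is printed in capitals. They are RefSeq sequences of GRCh38.p14, given 5′ to 3′ on the gene's strand, at chr1:27672143-27672442 on the minus strand and chr21:41420308-41420607 on the plus strand, each reaching from upstream to just past the annotated start.
IFI6: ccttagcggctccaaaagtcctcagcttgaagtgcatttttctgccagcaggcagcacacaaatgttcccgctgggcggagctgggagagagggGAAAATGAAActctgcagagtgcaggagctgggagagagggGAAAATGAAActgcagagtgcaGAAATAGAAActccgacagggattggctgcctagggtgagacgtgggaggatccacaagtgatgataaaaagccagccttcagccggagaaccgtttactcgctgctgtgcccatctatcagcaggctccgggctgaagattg
MX1: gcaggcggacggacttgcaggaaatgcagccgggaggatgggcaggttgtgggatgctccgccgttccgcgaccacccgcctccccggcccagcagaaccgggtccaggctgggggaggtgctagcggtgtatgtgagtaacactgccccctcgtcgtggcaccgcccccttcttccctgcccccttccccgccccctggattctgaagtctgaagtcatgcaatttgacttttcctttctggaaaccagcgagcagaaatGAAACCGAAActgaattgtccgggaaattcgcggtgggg
The IFI6 promoter held 3 matches, all before the start, and the MX1 promoter 1, just after it, in a table where 3.57% of 35116 promoters held any. The canonical start of MX1 used for the shares above differs, and its window held none. A match is a description of the letters and not of binding.

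Genes of the cornified envelope, the protein shell of keratinising epithelium, and the kallikrein proteases that act with it were called lower in 10 of 20 tested cases and higher in 0, with a median interaction of -2.35, and PEO4 alone called 14 down. PI3, the elastase inhibitor elafin, read 411, 125 and 208 CPM in untreated PEO4 and 5.25, 3.97 and 4.22 CPM at 6 h, and 22.3, 24.2 and 29.6 CPM untreated and 11.6, 11.6 and 10.4 CPM at 6 h in PEO1 BRCA+. It fell in both lines, further in PEO4, with an interaction of -4.60 ± 0.53 (adjusted p = 1.27e-05). The kallikrein KLK10 gives the contrast at equal untreated levels, with 436, 242 and 405 CPM falling to 65.3, 68.8 and 75.6 CPM in PEO4 and 359.7, 365 and 361 CPM untreated and 398, 403 and 402 CPM at 6 h in PEO1 BRCA+ (interaction -2.52 ± 0.21, adjusted p = 3.58e-07). The 6 h libraries of PEO1 BRCA+ lay slightly above the untreated ones and those of PEO4 well below. The transglutaminase TGM1 dropped from a mean of 349 to 28.1 CPM in PEO4 and read 80.7 and 50.4 CPM in PEO1 BRCA+ (interaction -2.95 ± 0.14, adjusted p = 9.02e-12). Its relative TGM3 went from 607, 213 and 503 CPM to 1.48, 1.10 and 0.898 CPM in PEO4, and loricrin (LORICRIN) from 85.5, 36.8 and 45.9 to 0.453, 0.275 and 0.389 CPM. Both were under 1 CPM in untreated and 6 h PEO1 BRCA+, and neither was called in the interaction. Untreated PEO4 cells of the other experiment, counted in a separate table, held 11.2 CPM of TGM3, 6.70 of PI3, 0.119 of LORICRIN and 23.6 of KRT5. KLK10 was at 89.7 CPM there, nearer its 6 h mean here (69.9) than its untreated one (361). TGM1 was at 609 CPM there, above its untreated mean here. The untreated level of these genes thus varied between cultures, on separately scaled tables.

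Among 15 keratins 6 were called lower and 1 higher. Basal keratin KRT5 held 1364, 1195 and 1476 CPM untreated and 1190.4, 1208 and 1277 CPM at 6 h in PEO1 BRCA+, but 243, 101 and 179 CPM untreated and 17.8, 21.4 and 24.9 CPM at 6 h in PEO4. The groups overlapped in PEO1 BRCA+ and not in PEO4, and the interaction was -2.90 ± 0.33 (adjusted p = 1.14e-05). KRT13, a keratin of stratified mucosa, had 70.1, 15.1 and 48.6 CPM untreated and 1.43, 0.946 and 1.32 CPM at 6 h in PEO4, with means of 6.39 and 10.1 CPM in PEO1 BRCA+ (interaction -5.83 ± 0.78, adjusted p = 4.92e-05). KRT15 was -1.99, and KRT6B, called higher, was 1.60. Ovarian carcinoma markers were mixed, with 1 of 13 higher and 4 lower. MECOM, a lineage transcription factor, rose from 0.0866, 0.251 and 0.138 CPM to 10.5, 9.64 and 10.5 CPM in PEO4 and read 2.11, 2.97 and 2.55 CPM untreated and 2.66, 3.40 and 3.67 CPM at 6 h in PEO1 BRCA+, an interaction of 5.67 ± 0.33 (adjusted p = 3.26e-12). The surface proteins mesothelin (MSLN, -1.92 ± 0.18, adjusted p = 7.84e-07) and folate receptor alpha (FOLR1, -4.28 ± 1.23, adjusted p = 0.00729) went the other way, FOLR1 from a mean of 33.7 to 1.16 CPM in PEO4 while under 1 CPM in PEO1 BRCA+. FOLR1 lost its call without PEO1 BRCA+ 6 h replicate 2 (adjusted p = 0.0960).

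Among WNT and BMP ligands and WNT feedback inhibitors more members were called lower than higher, as over all tested genes (9.34% lower and 5.42% higher). WNT proteins signal through Frizzled and LRP receptors to beta-catenin, which switches on its own inhibitors, and BMPs act through SMADs. Of 14 tested WNT ligands 6 were called lower and 2 higher, of 16 receptors 3 lower and 2 higher, and of 9 feedback inhibitors 4 lower and 0 higher. LGR6, a receptor for R-spondins, read 94.4, 50.2 and 132 CPM in untreated PEO4, 6.83, 7.59 and 6.65 CPM at 2 h and 3.27, 3.57 and 3.89 CPM at 6 h. In PEO1 BRCA+ it held 14.9, 15 and 12 CPM untreated and 13.2, 14.2 and 11.6 CPM at 6 h, overlapping, and the interaction was -4.59 ± 0.41 (adjusted p = 1.20e-06). APCDD1, a membrane inhibitor of WNT receptors, went from 218, 176 and 281 to 4.67, 6.35 and 6.59 CPM in PEO4 and from a mean of 0.933 to 0.913 CPM in PEO1 BRCA+, where its level was close to the floor of 1 CPM (interaction -5.24 ± 0.55, adjusted p = 3.14e-06). AXIN2 (-4.23 ± 0.73, adjusted p = 3.12e-04) and NKD1 (-2.81 ± 0.43, adjusted p = 3.02e-05), both intracellular inhibitors, were also called lower, AXIN2 with means of 0.957 CPM untreated and 0.857 CPM at 6 h in PEO1 BRCA+. The ligands WNT5A and WNT6 fell in both lines, and more in PEO4, with interactions of -2.14 ± 0.24 (adjusted p = 1.23e-07) and -2.11 ± 0.72 (adjusted p = 0.0254). WNT9A was called higher, going from 17.4 to 55.6 CPM in PEO4 and from 69.4 to 103 CPM in PEO1 BRCA+ (interaction 1.10 ± 0.15, adjusted p = 8.19e-06). Levels in untreated PEO4 of the other experiment were on a separately scaled table. WNT6 was at 6.30 CPM there, nearer its 6 h level here (3.46) than its untreated one (68.6). LGR6 at 132 CPM and AXIN2 at 15.4 CPM were nearer the untreated levels (92.2 and 26.2).

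In the TGF-beta and BMP list 11 of 42 members were called lower and 4 higher, with 5 of 12 ligands lower. BMP7 read 178, 87.2 and 212 CPM in untreated PEO4 and 11.4, 10.3 and 10.2 CPM at 6 h, against 5.75, 7.64 and 8.78 CPM untreated and 7.02, 8.52 and 7.84 CPM at 6 h in PEO1 BRCA+. Its PEO1 BRCA+ libraries overlapped and its PEO4 libraries did not, with an interaction of -3.97 ± 0.41 (adjusted p = 4.66e-06). INHBB, an activin subunit, had 251 CPM untreated and 392 CPM at 6 h in PEO1 BRCA+, and 103 and 21.4 CPM in PEO4 (interaction -2.91 ± 0.17, adjusted p = 9.66e-10). The other activin subunit INHBA went the opposite way, from 16.3 to 89.3 CPM in PEO4 (interaction 2.24 ± 0.32, adjusted p = 8.37e-05). The decoy receptor BAMBI (-3.13 ± 0.43, adjusted p = 5.64e-05) and the BMP target ID3 (-1.87 ± 0.17, adjusted p = 1.80e-07) were lower. Untreated PEO4 of the other experiment, separately scaled, held 9.70 CPM of BAMBI, 25.6 of ID3 and 7.85 of INHBB. These lay below the 6 h levels here (15.5, 60.1 and 21.4 CPM). BMP7 was at 341 CPM there, above its untreated libraries here. The untreated level of these genes thus varied between cultures. In the Notch list 5 of 22 members were lower and 3 higher. NRARP, a feedback inhibitor, was lower (-2.46 ± 0.30, adjusted p = 3.44e-07), and the ligand JAG1, which rose from 1.24 to 3.62 CPM in PEO4, was higher (1.11 ± 0.19, adjusted p = 4.84e-05).

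In the list of collagens, laminins and integrins 6 of 37 members were called higher and 9 lower. Outside that list, THBS1, a secreted matrix glycoprotein encoded at chr15:39581079-39599466 (GRCh38), stood at 23.7, 38.9 and 19.3 CPM in untreated PEO4 and 443, 418 and 475 CPM at 6 h. PEO1 BRCA+ held 423, 459.9 and 494 CPM untreated and 810.1, 773 and 891 CPM at 6 h. In both lines the 6 h libraries lay above the untreated ones, with log2 responses of 4.04 ± 0.21 in PEO4 and 0.85 ± 0.18 in PEO1 BRCA+ and an interaction of 3.19 ± 0.26 (adjusted p = 4.47e-07). TNC, the matrix protein tenascin C, read 2.77, 11.5 and 1.20 CPM untreated and 48.4, 47.3 and 45.6 CPM at 6 h in PEO4 but 25.4, 21.9 and 22.3 CPM untreated and 18.8, 18 and 24.1 CPM at 6 h in PEO1 BRCA+ (interaction 3.43 ± 0.56, adjusted p = 2.45e-04). Untreated replicate 2 was the highest of the untreated PEO4 libraries for THBS1 and TNC, yet below each 6 h library. The hyaluronan receptor CD44 averaged 91.7 CPM untreated and 556 CPM at 6 h in PEO4, and 741 and 1005 CPM in PEO1 BRCA+ (interaction 2.16 ± 0.33, adjusted p = 1.35e-04).

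Within the matrix list the classes parted. Of 9 laminins 3 were called higher and 0 lower, of 16 collagens 7 lower and 1 higher, and of 12 integrins 2 lower and 2 higher. LAMA3, an epithelial laminin chain, rose from 219.7, 381 and 136 to 860.0, 822 and 874 CPM in PEO4 and read 792, 693 and 825 CPM untreated and 826, 784 and 872 CPM at 6 h in PEO1 BRCA+ (interaction 1.69 ± 0.36, adjusted p = 0.00181). After 6 h the ranges of the lines overlapped. ITGB6 (1.90 ± 0.51, adjusted p = 0.00852) and ITGA5 (1.30 ± 0.15, adjusted p = 2.41e-07), integrin subunits for fibronectin and related ligands, were higher. COL17A1, a hemidesmosomal collagen, read 8.40, 10.3 and 12.6 CPM untreated and 0.477, 0.702 and 0.988 CPM at 6 h in PEO4, and 5.99, 5.58 and 6.02 CPM untreated and 11.5, 10.6 and 12.4 CPM at 6 h in PEO1 BRCA+ (interaction -4.85 ± 0.24, adjusted p = 1.69e-13). Untreated PEO4 of the other experiment, separately scaled, held 0.570 CPM of COL17A1, nearer the 6 h level here. Vimentin (VIM), a mesenchymal filament, was higher at 2.74 ± 0.67 (adjusted p = 0.00445), and the calcium-binding protein S100A4 lower at -4.17 ± 0.29 (adjusted p = 3.33e-11). Of 7 fibroblast markers 2 averaged over 1 CPM in each untreated line, COL1A1 and COL3A1 in PEO4 and COL1A1 and FAP in PEO1 BRCA+, and the sum of the 7 in PEO4 went from between 21.2 and 37.6 CPM to between 3.58 and 4.73 CPM, against 12.6 to 15.9 and then 15.4 to 16.8 CPM in PEO1 BRCA+, with DCN at 5 counts or fewer in each library. Of 6 leukocyte markers PTPRC and CD3E held at most 1 count in any of the 12 libraries, while CD68, a lysosomal protein of macrophages, averaged 42.4 CPM untreated and 72.4 CPM at 6 h in PEO4 and 34.7 and 42.5 CPM in PEO1 BRCA+, and CD14 was at 2.00 and 2.01 CPM in PEO4 and 5.08 and 4.50 CPM in PEO1 BRCA+. The sum of the 6 went from between 33.8 and 57.1 to between 70.2 and 79.7 CPM in PEO4 and from between 38.8 and 41.6 to between 46.3 and 48.3 CPM in PEO1 BRCA+, and neither of the 2 tested members was called. Of 4 endothelial markers 3 were tested and 1 was called lower, with a sum of 1.61 to 2.76 CPM untreated and 0.183 to 0.210 CPM at 6 h in PEO4 (0.575 to 1.16 and 0.851 to 1.03 CPM in PEO1 BRCA+). The part of these markers in the results was not tested.

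The largest interactions with expression in both lines were spread over several roles. ANPEP, a cell surface aminopeptidase, had 54.1, 109 and 32.2 CPM in untreated PEO4, 629.5, 581 and 603 CPM at 2 h and 465, 424 and 434 CPM at 6 h, against 421, 481 and 478 CPM untreated and 352, 332 and 342 CPM at 6 h in PEO1 BRCA+ (interaction 3.19 ± 0.40, adjusted p = 2.90e-05). The level in PEO4 at 6 h overlapped that of untreated PEO1 BRCA+. Untreated PEO4 cells of the other experiment, on a separately scaled table, held 507 CPM of ANPEP, above the 6 h level here. CNTN1, a neuronal adhesion molecule, the cation transporter SLC22A3 and the neuropeptide galanin (GAL) had interactions of 3.31 ± 0.52 (adjusted p = 1.73e-04), 3.40 ± 0.53 (adjusted p = 1.60e-04) and 3.29 ± 0.35 (adjusted p = 6.02e-06). SRPX rose from 5.07, 11.5 and 5.67 to 139, 133 and 132 CPM in PEO4 and was at 8.05, 8.35 and 6.37 CPM untreated and 11, 9.28 and 9.19 CPM at 6 h in PEO1 BRCA+, so its 6 h level passed both states of PEO1 BRCA+ (interaction 3.83 ± 0.29, adjusted p = 1.00e-07). TRHDE, an ectopeptidase that cleaves thyrotropin-releasing hormone, had the largest positive interaction of those named by level (4.44 ± 0.32, adjusted p = 3.70e-08), and the teneurin TENM2 (3.56 ± 0.34, adjusted p = 1.87e-06) and the ubiquitin ligase MARCHF4 (3.51 ± 0.29, adjusted p = 3.63e-08) were also called higher. MARCHF4 rose in both lines, and was at 1.21 CPM at 2 h and 20.6 CPM at 6 h in PEO4, whereas TRHDE was already at 31.3 CPM at 2 h.

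FOXQ1, a forkhead transcription factor at chr6:1312098-1314758 (GRCh38), had the largest negative interaction among these genes. It read 154, 59.1 and 247 CPM in untreated PEO4, 1.17, 0.736 and 0.864 CPM at 2 h and 0.692, 1.31 and 1.35 CPM at 6 h. Untreated PEO4 of the other experiment held 125 CPM. In PEO1 BRCA+ it held 15.3, 14 and 19.6 CPM untreated and 26, 25.4 and 18.8 CPM at 6 h. The level in PEO4 was near 1 CPM from 2 h on, PEO1 BRCA+ overlapped between conditions, and the interaction was -7.66 ± 0.69 (adjusted p = 1.49e-06). ABCC3, an efflux pump for conjugated drugs and bile salts, went from 134, 80.8 and 163 to 2.24, 1.92 and 2.22 CPM in PEO4 and from 52, 52.8 and 60.6 to 42, 40.8 and 35.7 CPM in PEO1 BRCA+ (interaction -5.40 ± 0.32, adjusted p = 1.72e-08). PEO4 had the higher level untreated and the lower one at 6 h. The guidance receptors PLXNA4 (-5.62 ± 0.24, adjusted p = 3.61e-12) and UNC5B (-4.54 ± 0.22, adjusted p = 1.24e-10) and the homeobox factor MSX2 (-4.49 ± 0.40, adjusted p = 8.76e-07) were called lower too, and their PEO4 level at 6 h was below (UNC5B, PLXNA4) or overlapped (MSX2) that of PEO1 BRCA+. CEACAM6, a carcinoembryonic adhesion molecule, was the high gene of PEO1 BRCA+, with 217, 234 and 202 CPM untreated and 429, 422 and 384 CPM at 6 h, and it fell from 14, 7.58 and 7.56 to 1.03, 1.01 and 1.05 CPM in PEO4 (interaction -4.17 ± 0.28, adjusted p = 1.34e-08). GDPD5 and PLAT, which encode a phosphodiesterase and tissue plasminogen activator, were at -4.14 ± 0.27 and -4.05 ± 0.24.

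**Figure D4:**
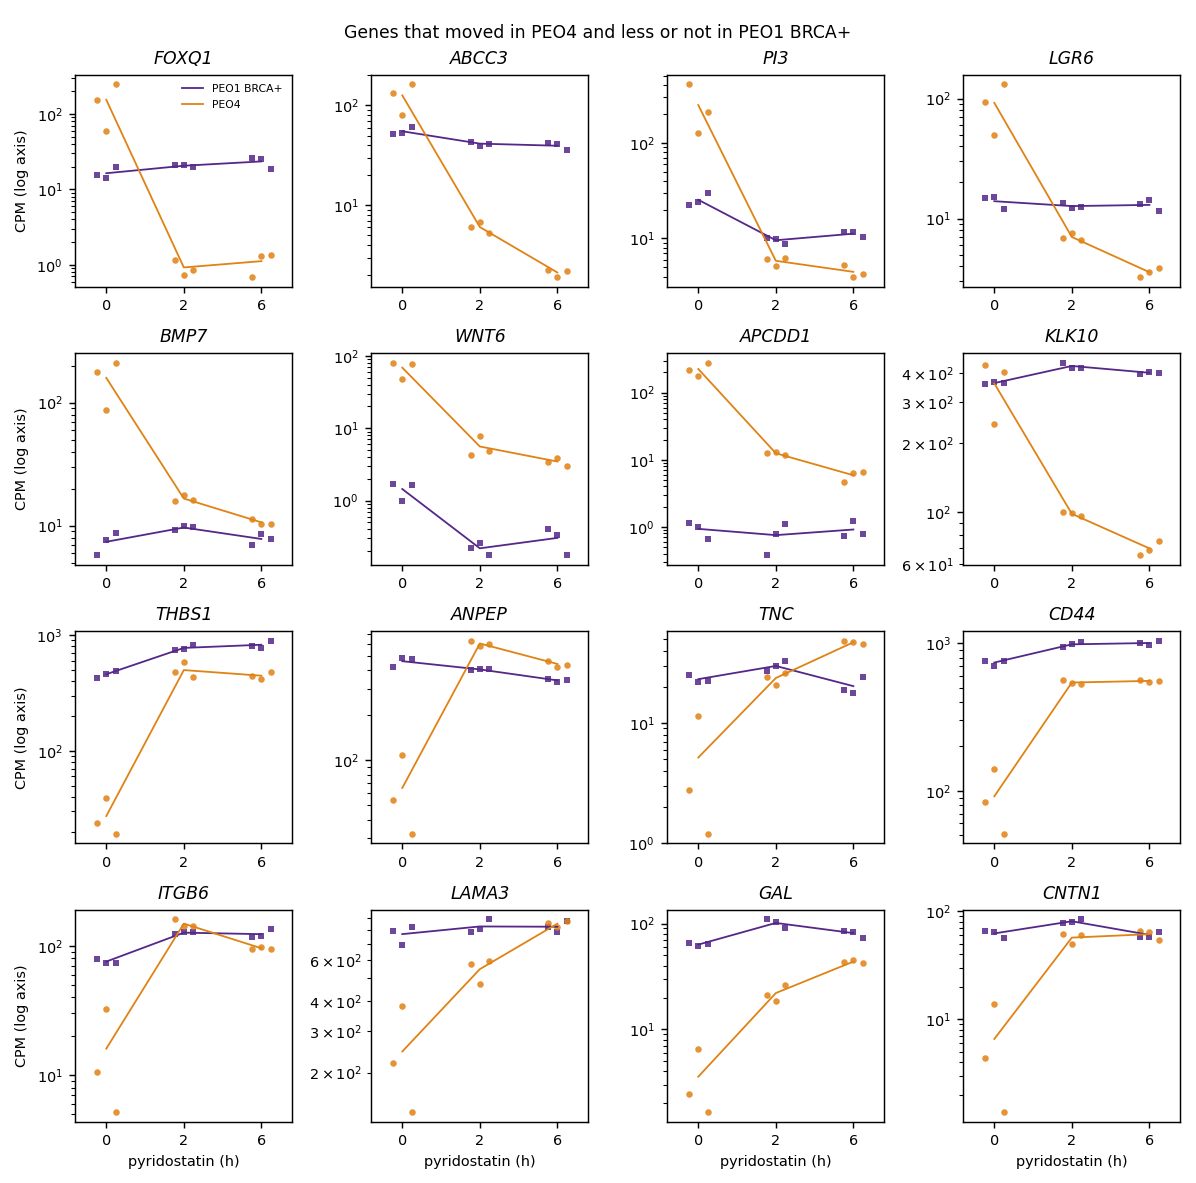
CPM on a log axis in untreated cells and at 2 h and 6 h of PDS for 16 genes, with points for single libraries and lines through the means of 3 in PEO4 (orange circles) and PEO1 BRCA+ (purple squares). The upper 8 genes fall in PEO4, FOXQ1 from 153 to 1.12 CPM, and the lower 8 rise, ANPEP from 65.2 to 441 CPM, with the larger part of each change on the log scale in place at 2 h.

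Of 22 tested NF-kB driven cytokine genes 5 were called higher and 2 lower, with 3 of 6 chemokines among the former. CXCL8, which attracts neutrophils, read 0.649, 1.21 and 0.276 CPM untreated and 7.30, 5.98 and 7 CPM at 6 h in PEO4, and 56.7, 49.7 and 61.9 CPM untreated and 58.1, 66 and 62.8 CPM at 6 h in PEO1 BRCA+ (interaction 3.12 ± 0.27, adjusted p = 1.44e-08). It rose in PEO4 without overlap but stayed below PEO1 BRCA+. CXCL1 (2.79 ± 0.38, adjusted p = 4.16e-05) and CXCL2 (3.85 ± 0.37, adjusted p = 1.00e-07) lie in the same chromosome 4 cluster, and CXCL2 fell in PEO1 BRCA+ from a mean of 11.8 to 3.34 CPM. Immediate early genes were lower more often than higher, 7 against 3 of 30. NR4A1, an orphan nuclear receptor, had 181, 223 and 75.2 CPM untreated and 25.9, 28.3 and 28.7 CPM at 6 h in PEO4 (interaction -1.93 ± 0.46, adjusted p = 0.00404), and FOSL1, an AP-1 subunit, rose from 93.4 to 458 CPM (interaction 1.69 ± 0.35, adjusted p = 0.00154). Untreated PEO4 of the other experiment, separately scaled, held 43.3 CPM of NR4A1, nearer the 6 h level here. It held 39.3 CPM of FOSL1, below both levels here.

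In 72 genes the lines were called in opposite directions, 41 up in PEO4 and down in PEO1 BRCA+ and 31 the reverse. Only 28 of them reached 1 CPM in each line. HIPK2, a nuclear kinase that acts on p53, read 16.2, 24.1 and 18.8 CPM in untreated PEO4 and 144, 132 and 130.3 CPM at 6 h. PEO1 BRCA+ went from 159.9, 159.7 and 181 to 69.6, 66.3 and 91.9 CPM. Neither line's groups overlapped, and the interaction was 3.92 ± 0.21 (adjusted p = 1.72e-09). CDH6, a cadherin of kidney and ovarian cancers, rose from 19.7, 54.7 and 15.8 to 87.2, 86 and 87.1 CPM in PEO4, after 233, 233 and 202 CPM at 2 h, and fell from 62.8, 66.5 and 62.6 to 17.7, 17.5 and 14.9 CPM in PEO1 BRCA+ (interaction 3.48 ± 0.46, adjusted p = 4.13e-05). The interleukin 7 receptor IL7R (3.15 ± 0.23, adjusted p = 5.41e-10), the ubiquitin hydrolase UCHL1 (2.95 ± 0.26, adjusted p = 7.63e-08) and the synaptic calcium sensor SYT1 (2.54 ± 0.16, adjusted p = 1.17e-11) likewise rose in PEO4 and fell in PEO1 BRCA+. The reverse was seen for FGFBP1, a carrier of fibroblast growth factors, with 123, 123 and 106 CPM untreated and 328, 309.6 and 259 CPM at 6 h in PEO1 BRCA+ and 167, 74.9 and 159 CPM untreated and 34.2, 35 and 41.1 CPM at 6 h in PEO4 (interaction -3.22 ± 0.32, adjusted p = 3.87e-06). WNT7A, a ligand, rose in PEO1 BRCA+, from 87.2, 92.2 and 86.4 to 188, 191 and 179 CPM, and fell from 50.7, 69.1 and 33.6 to 14.8, 14.3 and 14.6 CPM in PEO4 (interaction -2.88 ± 0.26, adjusted p = 1.33e-06). In untreated PEO4 of the other experiment, separately scaled, WNT7A was at 1.23 CPM, below the 6 h libraries here. FGFBP1 was at 66.3 CPM there, between the untreated and 6 h libraries.

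Genes called in PEO1 BRCA+ and not in PEO4 included metallothioneins, small proteins that bind zinc and copper. Of 7 tested, 4 were called lower in the interaction and these 4 were called up in PEO1 BRCA+ and not called in PEO4. MT1X read 27, 20.9 and 20.6 CPM untreated and 119, 126 and 89 CPM at 6 h in PEO1 BRCA+, and 19.5, 17.3 and 19.1 CPM untreated and 33.3, 32.4 and 34.6 CPM at 6 h in PEO4 (interaction -1.45 ± 0.18, adjusted p = 8.12e-06). MT1M went from 19.7, 19.4 and 16.2 to 78, 74.5 and 52.6 CPM in PEO1 BRCA+ and held 6.36, 5.22 and 4.01 CPM untreated and 5.82, 6.26 and 5.63 CPM at 6 h in PEO4 (interaction -1.72 ± 0.27, adjusted p = 1.06e-04). The rises of both in PEO1 BRCA+ had no overlap, and the 6 h libraries of PEO4 also lay above the untreated ones for MT1X (log2 response 0.84 ± 0.13), short of the fold threshold. MT1E rose in both lines, from 238 to 737 CPM and from 103 to 275 CPM, with an interaction of -0.22 ± 0.12. These genes lie in a cluster of near-identical copies on chromosome 16, so reads may be split between them. The zinc importer SLC39A4 fell in PEO1 BRCA+ from 17.6, 16.2 and 19.1 to 2.50, 2.82 and 2.73 CPM and averaged 271 CPM untreated and 251 CPM at 6 h in PEO4 (interaction 2.61 ± 0.22, adjusted p = 1.61e-07).

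The MT1X promoter is shown because MT1X is the highest of the 4 metallothioneins called lower. Metal response elements, searched as TGCGCNC or TGCACNC on either strand, were found in the windows of all 7 tested metallothioneins and in 39.1% of windows over all tested genes. Capitals mark the 4 matches in the RefSeq promoter of GRCh38.p14, chr16:56682220-56682519 on the plus strand, over the same span around the start.
MT1X: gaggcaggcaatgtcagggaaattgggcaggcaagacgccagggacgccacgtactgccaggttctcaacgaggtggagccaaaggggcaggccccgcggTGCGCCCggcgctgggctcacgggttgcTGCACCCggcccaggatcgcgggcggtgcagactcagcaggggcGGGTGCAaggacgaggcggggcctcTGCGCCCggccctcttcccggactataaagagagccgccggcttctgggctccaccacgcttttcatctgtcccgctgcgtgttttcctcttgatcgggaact
Over all RefSeq promoters 29.6% held such a match.

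Other genes called in PEO1 BRCA+ only belonged to stress, differentiation and matrix. Involucrin (IVL), an envelope precursor, rose from 45.7, 36.7 and 52.6 to 102, 107 and 97.5 CPM in PEO1 BRCA+ and read 30.1, 13.8 and 22.4 CPM untreated and 13.8, 12.4 and 11.3 CPM at 6 h in PEO4 (interaction -2.02 ± 0.29, adjusted p = 7.79e-05). The cell cycle inhibitor p21 (CDKN1A) had 9.78, 8.22 and 8.65 CPM untreated and 15.2, 18.2 and 22.8 CPM at 6 h in PEO1 BRCA+, against 30.6, 20.9 and 25.4 CPM untreated and 16.3, 17.6 and 16 CPM at 6 h in PEO4. Its libraries did not overlap in either line, rising in PEO1 BRCA+ and falling in PEO4, where the fall was not called. The interaction was -1.71 ± 0.19 (adjusted p = 6.38e-07). Of 28 p53 targets 4 were called lower and 1 higher, and PEO1 BRCA+ alone called 1 up, CDKN1A. TXNIP, an inhibitor of thioredoxin, was -1.98 ± 0.27 (adjusted p = 4.36e-05). Fibronectin (FN1) fell from 569, 690.3 and 901 to 184, 180.0 and 218 CPM in PEO1 BRCA+ and read 107, 153 and 145 CPM untreated and 189, 189.5 and 204 CPM at 6 h in PEO4, an interaction of 2.42 ± 0.23 (adjusted p = 1.57e-06). The ephrin receptor EPHB1 (2.61 ± 0.25, adjusted p = 8.88e-08), the tight junction protein CLDN11 (2.38 ± 0.17, adjusted p = 6.76e-11) and carbonyl reductase CBR1 (2.23 ± 0.16, adjusted p = 5.64e-11) also fell there.

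**Figure D5:**
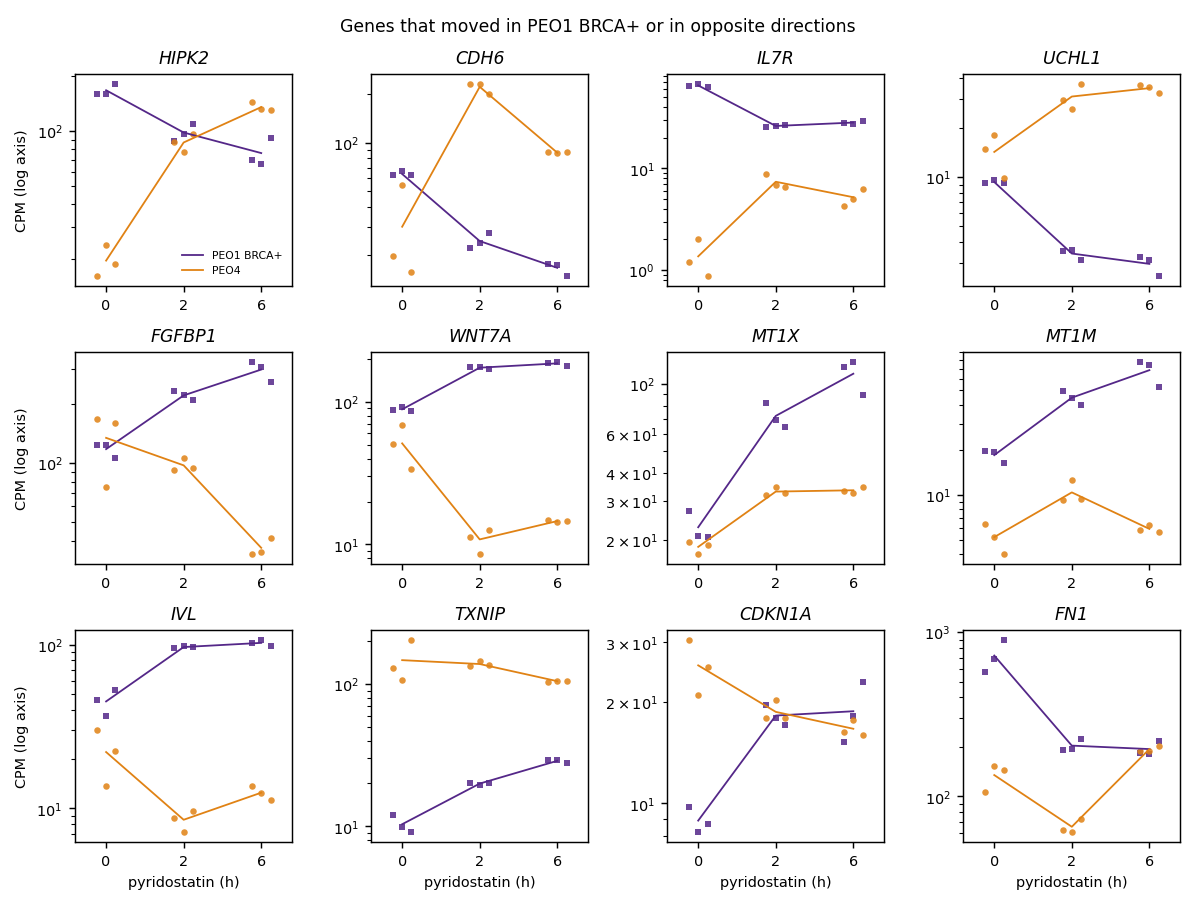
CPM on a log axis in untreated cells and at 2 h and 6 h of PDS for 12 genes, with points for libraries and lines through the means of 3 in PEO4 (orange circles) and PEO1 BRCA+ (purple squares). HIPK2, CDH6, IL7R and UCHL1 rise in PEO4 and fall in PEO1 BRCA+, FGFBP1 and WNT7A do the reverse, and MT1X rises from 22.8 to 111 CPM in PEO1 BRCA+.

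Genes of the hypoxia response and glycolysis were lower in PEO4 in 8 of 26 tested cases and higher in 0, with a median response of 0.05 in PEO4 and 0.36 in PEO1 BRCA+. The roles differed, with 5 of 11 hypoxia genes called lower (median interaction -0.86) and 3 of 15 glycolysis genes (median interaction -0.07). The glycolysis genes had median responses of 0.28 in PEO4 and 0.31 in PEO1 BRCA+. NDRG1, a stress-induced gene, read 489.8, 346 and 378 CPM untreated and 167, 148 and 151 CPM at 6 h in PEO4, and 404, 429 and 398 CPM untreated and 602, 585 and 596 CPM at 6 h in PEO1 BRCA+. The lines started at like levels and separated without overlap (interaction -1.92 ± 0.12, adjusted p = 9.42e-11). VEGFA, the vascular growth factor, fell from 231 to 70.1 CPM in PEO4 and read 48.8 and 40.5 CPM in PEO1 BRCA+ (interaction -1.45 ± 0.12, adjusted p = 5.90e-09). PDK1, which restrains entry of pyruvate into mitochondria, was -1.65 ± 0.18 (adjusted p = 7.66e-08). Carbonic anhydrase 9 (CA9) rose from 2.06, 3.14 and 0.834 to 13.6, 13.5 and 12.7 CPM in PEO1 BRCA+ and was under 1 CPM in PEO4, at 0.563, 0.603 and 0.415 and then 0.0477, 0.0915 and 0.120 CPM (interaction -5.31 ± 0.70, adjusted p = 3.08e-06). The CA9 promoter is given because its product is a standard marker of hypoxia. Capitals mark the core of the hypoxia response element, searched as ACGTG on either strand, in RefSeq GRCh38.p14 at chr9:35673678-35673977, plus strand, over the same span around the start.
CA9: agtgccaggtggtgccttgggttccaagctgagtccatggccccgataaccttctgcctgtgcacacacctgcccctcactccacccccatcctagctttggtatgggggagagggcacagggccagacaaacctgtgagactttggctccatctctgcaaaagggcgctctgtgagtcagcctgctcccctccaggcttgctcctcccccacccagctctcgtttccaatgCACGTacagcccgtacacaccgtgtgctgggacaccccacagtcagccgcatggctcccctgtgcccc
The core was in 15 of 26 list members (57.7%), 25.2% of windows over all tested genes, and 21.4% of RefSeq promoters. Members with the core included some called lower (CA9, PDK1 and ENO2) and some not called (LDHA, PGK1 and GAPDH). NDRG1, VEGFA and PFKFB4, all called lower, had no match.

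Cholesterol synthesis had 5 of 26 members called lower and 0 higher. Its median response was 0.55 in PEO1 BRCA+ and 0.21 in PEO4. HMGCS1, an early enzyme of the pathway, rose from 59.8 to 130.2 CPM in PEO1 BRCA+ and was at 34.4 and 36.3 CPM in PEO4 (interaction -1.05 ± 0.15, adjusted p = 2.08e-05), and the regulator SREBF1 fell in PEO4 (-1.15 ± 0.20, adjusted p = 2.73e-04). Without untreated PEO4 replicate 3, 2 members were called. Among replication-dependent histones 7 of 32 were lower and 2 higher, with H1-2 at -3.66 ± 0.23 (adjusted p = 6.90e-12). Such transcripts lack poly(A) tails for the most part, and 7 of the 32 reached 1 CPM in each line. Heat shock chaperones had 2 members higher and 2 lower of 23, HSP90AA1 rising from 1649 ± 295 to 4913 ± 68.1 CPM (SD) in PEO4 and from 2166 ± 295 to 3079 ± 96.4 CPM in PEO1 BRCA+ (interaction 1.07 ± 0.17, adjusted p = 6.73e-05). Without untreated PEO4 replicate 3 the values of HSP90AA1 (0.93) and SREBF1 (-0.98) fell short of the fold threshold, and so did HSP90AA1 without untreated PEO1 BRCA+ replicate 1 (0.97).

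In the platinum transport, glutathione and metallothionein list as a whole 8 of 30 members were called lower and 2 higher. Calcium signalling genes were lower in 7 and higher in 1 of 44 cases, mesenchymal genes lower in 3 and higher in 4 of 21 (8 higher without untreated PEO4 replicate 2), YAP and TEAD genes lower in 3 and higher in 2 of 28, MAPK feedback genes lower in 3 and higher in 2 of 23, and steroid receptor genes lower in 1 and higher in 2 of 15. Epithelial junction genes had 1 of 20 called each way. Genes of the EGF family (17), the integrated stress and unfolded protein response (29) and DNA replication (39) had 1 called lower and 0 higher each, and mTOR complexes (24) and P-TEFb and elongation (23) 1 called higher and 0 lower each. These small counts moved with single settings. The EGF family had 1 to 3 members called lower over the alternatives (3 with DESeq2) and 0 to 3 higher (3 without untreated PEO4 replicate 2), the stress response 1 to 2 lower (2 without untreated PEO4 replicate 3) and 0 to 1 higher, MAPK feedback 1 to 3 higher (1 without PEO1 BRCA+ 6 h replicate 3 and 3 without untreated PEO4 replicate 2), calcium signalling up to 2 higher and steroid receptor genes down to 1 higher. P-TEFb and elongation had 1 member called lower without untreated PEO4 replicate 2. Histones called higher ranged from 0 to 3, heat shock chaperones called higher from 1 to 2, and NF-kB cytokine genes called lower from 1 to 3.

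Several lists had no member called. Of 75 ribosomal protein genes the interaction ranged from -0.49 to 0.59, with median responses of 0.53 in PEO4 and 0.58 in PEO1 BRCA+. Genes of homologous recombination and Fanconi repair (34) spanned -0.81 to 0.99, G-quadruplex helicases (18) -0.42 to 0.48, mitosis genes (32) -0.29 to 0.96, and oxidative phosphorylation genes (36) -0.71 to 0.54. Leaving out 1 library at a time called up to 2 homologous recombination members higher (2 without PEO4 6 h replicate 3, and 1 without any 1 of 7 others), and 1 mitosis member without untreated PEO1 BRCA+ replicate 3 or untreated PEO4 replicate 2. None of 6 Pol III transcripts was called, but 1 was without untreated PEO4 replicate 2. Ribosome biogenesis (35) also had 0 called, but 33 of its members had a positive interaction, the median was 0.38, and PEO4 alone called 11 up against 1 in PEO1 BRCA+. BRCA2, the gene for which PEO1 BRCA+ is labelled, read 7.86, 8.80 and 8.08 CPM untreated and 5.15, 4.67 and 5.25 CPM at 6 h there and 7.92, 7.33 and 9.26 CPM untreated and 10.6, 9.64 and 8.11 CPM at 6 h in PEO4. Its interaction of 0.93 ± 0.17 (adjusted p = 7.94e-05) passed the adjusted p and fell short of the fold threshold, which it passed without untreated PEO4 replicate 3 (1.03) or PEO4 6 h replicate 3 (1.02).

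Some of the called genes averaged 1 CPM or more in 1 line only, with 305 under 1 CPM in both conditions of PEO1 BRCA+ and 167 in both conditions of PEO4. Another 292 were under 1 CPM in both lines. For these the interaction rests on the response of the other line or on few counts. HOPX, a homeodomain protein of stem cells, was at least 44.9-fold lower, against a floor of 3 counts in each 6 h library, and NOTUM, a WNT deacylase, at least 51-fold lower in PEO4. The chemokine CXCL5 rose at least 5.91-fold there, to 0.930, 0.885 and 0.659 CPM. On the other side NYAP2, the near-identical pair MAGED4 and MAGED4B, and CCN5 averaged under 1 CPM in each group of both lines, and each lost its call under several alternatives. NOTUM lost its call without PEO1 BRCA+ 6 h replicate 1 (adjusted p = 0.0539) and when the 12 libraries were fitted alone (adjusted p = 0.0997).

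Gene length and promoter letters were not used to call the genes. The median gene span was 43243 bp for genes called higher, 25171 bp for those called lower and 26771 bp for all tested genes with a RefSeq position. A G-quadruplex motif (4 runs of GGG with 1 to 7 bases between, either strand) was in the promoter windows of 43.1% of genes called higher, 40.5% of those called lower and 36.5% of all tested. The median GC content of these windows was 66.7%, 65.0% and 65.3%. The AP-1 motif TGACTCA was found in 3.00%, 5.79% and 3.16%, and the interferon element in 1.96%, 5.73% and 2.91%. The core of the hypoxia response element was in 22.4%, 18.7% and 25.2%, and the metal response element in 39.2%, 36.1% and 39.1%. These shares are descriptions over 867, 1519 and 16032 genes with a window.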

How the data were processed

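RNA sequencing of PEO1 BRCA+ and PEO4 cells was analysed from gene counts deposited by the authors as 1 table of 18 libraries, with no normalisation. By the study's methods, poly(A)-enriched RNA was sequenced in paired reads. The submitters' processing notes name FastQC, fastp, STAR, featureCounts and hg38. Their versions, the annotation and the strand setting are not given in the sources used here, so reads of a gene and an antisense or near-identical partner may not be told apart. A second deposited table of counts, from 6 untreated libraries of another experiment, was used only for levels of untreated PEO4. No column of sample values was left unused (0), and 1 line of the table held no readable counts.

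Counts were scaled by TMM and fitted in edgeR 4.0.16 (R 4.3.3) with robust quasi-likelihood over 6 condition means and all 18 libraries (12 residual degrees of freedom, 17020 genes kept by filterByExpr at a minimum count of 10 and a minimum total of 15). The common dispersion was 0.00502. Library totals were 18699929 to 22375644 untreated and 34119767 to 43713947 at 6 h. Fold bounds against libraries with 3 counts or fewer used 3 counts per library. Levels are CPM on TMM-scaled library sizes. Intervals of counting error are not given, since replicate spread was the larger. Counts of different replicates differed by more than sampling noise (lowest chi-square per degree of freedom 2.13).

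Genes were named by rule. The first set is the 12 largest interactions each way whose log2 CPM averaged 3 or more, with separated libraries in 1 line or both. Further sets are genes called in opposite directions, in PEO1 BRCA+ only, or silent in 1 line, and list members. Others were chosen after their values were seen, and a few items are not reported here. Members and lists were chosen with earlier results of these data known. Promoter windows came from GENCODE release 44 canonical starts and printed sequences and positions from RefSeq, GRCh38.p14.

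Replicate numbers did not pair the libraries (0 of 18 pairs had a correlation over 0.1), so no replicate block was used. The alternatives were DESeq2 1.42.0, other scalings and filters, a replicate block, the 12 libraries alone and each library left out. Tested on simulated data with 16927 genes, the fit recovered 99% of 100 genes changed by 3 (log2) and 100% of 100 changed by 1.5, and called 2 unchanged genes. The simulation gave every gene the common dispersion and changed only genes averaging at least 100 counts. It therefore does not cover genes with wider replicate spread or fewer counts.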

Additional observations from a re-analysis of the deposited data

Results flagged for a closer look

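The interaction over all genes, 923 higher and 1589 lower in PEO4, is itself a tested difference between the responses of the lines, as are the 72 genes called in opposite directions. Among these the interaction (log2) was 3.92 for HIPK2, 3.48 for CDH6, 3.15 for IL7R, 2.95 for UCHL1, 2.54 for SYT1, -3.22 for FGFBP1 and -2.88 for WNT7A. The same contrast in the 2 h libraries called 1039 genes higher and 837 lower.

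Untreated PEO4 cells of another experiment in the series, counted in a separate table, were compared with the levels of the untreated and 6 h libraries. Their level lay nearer the untreated than the 6 h level for 483 of the 690 measurable genes called higher and for 789 of the 1058 called lower. It lay nearer the 6 h level for the remaining 207 and 269. The share over all measurable genes is not given here, so the counts cannot be read against it. The tables were scaled separately, so these are descriptions.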

How the results depend on the processing

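The interaction counts of 923 higher and 1589 lower were within 1.5 times of these under each alternative scaling, filter and tool, with DESeq2 at 899 and 1627, the 12 libraries alone at 898 and 1525, and the replicate block at 923 and 1594, and for the responses 1068 up and 2765 down in PEO4 and 219 and 1151 in PEO1 BRCA+. A threshold of 1.5-fold gave 1911 and 2515, and the adjusted p alone 4160 and 3910. Leaving out 1 library gave 861 to 1049 higher and 1464 to 1679 lower, with PEO4 at 911 to 1250 up and 2600 to 2887 down and PEO1 BRCA+ at 215 to 242 up and 1032 to 1210 down. Scaling to library totals gave 698 up in PEO4 and 146 in PEO1 BRCA+, and moved the median responses to -0.19 and -0.17. By the adjusted p alone, 3346 genes were called in PEO4 only, 1074 in PEO1 BRCA+ only, 981 in opposite directions, 2555 in the same direction and 114 in neither line. An expression floor of 5 CPM left 431 and 618 calls. With the longest transcript in place of the gene span, median lengths were 3961, 3385 and 3595.5 bases for genes called higher, called lower and all tested. Of 115 named genes, 14 lost their call under at least 1 alternative and 0 reversed. Samples in each group number 3, and genes under 1 CPM in a line have no measurable response there. Depth and treatment moved together, and their parts cannot be told apart.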
